A study of Caenorhabditis elegans with 2 samples.

Results

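NFYB-1 is the B subunit of NF-Y, a trimeric transcription factor that recognises the letters CCAAT, and the regions described here are those where it was found on the X chromosome of Caenorhabditis elegans. The regions were taken from the authors' conservative whole-series list by their chromosome alone, with no measured value in the choice. There were 614 such regions among the 3890 of the list, against 3265 on the 5 autosomes. Chromatin was precipitated with an antibody against GFP from strain RW12190, in which CRISPR had inserted TY1, EGFP and 3xFLAG into nfyb-1 at its own locus on chromosome II. Whole young adults were used at 65 hours, after bleaching and starvation at the L1 stage, so all cell types were mixed and the labels give no sex. The 2 biological replicates formed 1 group with this one genotype and treatment, and the labels' control experiment was not analysed here. A region is a stretch that the authors called as enriched, and its summit is the position of highest enrichment inside it. The authors kept regions by the irreproducible discovery rate (IDR), which compares the ranks that a region gets in different sets of calls.

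In the subunit pair NF-YB and NF-YC a histone-like fold holds the DNA, while NF-YA reads CCAAT in the minor groove, usually close to the start of a gene. The X chromosome of this worm is handled apart from the autosomes: in hermaphrodites the dosage compensation complex is loaded at recruitment sites on X, spreads along it and lowers its transcription. Many of those recruitment sites carry a motif whose core letters are GCGCAGGG. Transfer RNA (tRNA) genes, which RNA polymerase III transcribes from promoter elements inside the gene, lie at high density on the worm X.

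The X boxes at the strongest promoter regions are shown first because they carry the letters that NF-Y is known to read. Capitals mark CCAAT, coordinates are on WBcel235 (the same assembly as ce11, the build of the deposited regions), and the letters are those of the RefSeq genome on the strand given.
hsp-3, X:6092160-6092188, plus strand: agagtcattcggCCAATcggcgagcgccg
pdi-2, X:4524105-4524133, plus strand: caaactgcacggCCAATggggtgccggga
pdi-2, X:4524139-4524167, plus strand: ggtaggggcgggCCAATcgacgcgttcca
pdi-6, X:7068553-7068581, minus strand: acgacacgttgaCCAATcaactgcacaca
act-4, X:4960538-4960566, plus strand: ggggccagccgaCCAATggcaaagagcgg
Each is an extended box, which here means CCAAT preceded by 2 purines and followed by C or G and a purine, searched on both strands. At pdi-2 the second box also begins the ER stress element, which is CCAAT, 9 bases of any kind and CCACG; capitals mark both ends of it in the next line.
pdi-2, X:4524146-4524174, plus strand: gcgggCCAATcgacgcgttCCACGactaa

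The second set of sequences lies at strong X regions away from promoters, and its capitals mark GCGCAGGG. These sites were chosen for display after their values were seen.
region at 11094194, X:11094115-11094142, minus strand: gttttatatcGCGCAGGGagcttatgca
region at 11094194, X:11094216-11094243, minus strand: ggaaccattcGCGCAGGGacacctcact
region at 14525921, X:14525890-14525917, minus strand: attgcctatcGCGCAGGGacagatgtgg
region at 4209293, X:4209256-4209283, minus strand: tgccgctatcGCGCAGGGacacctcttt
region at 6296551, X:6296538-6296565, plus strand: tttacatttgGCGCAGGGggtcaccata
region at 6296551, X:6296566-6296593, plus strand: gataggtatcGCGCAGGGaagatttacc
region at 8036446, X:8036391-8036418, minus strand: attttttatcGCGCAGGGacgtatgtcg
region at 8036446, X:8036425-8036452, plus strand: tttttccatcGCGCAGGGaacccttcga

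X held 34.7 regions per Mb (exact Poisson 95% interval 32.0 to 37.5), against 39.6 per Mb on the autosomes together. The single autosomes ran from 30.7 per Mb on V to 56.8 per Mb on III, so X lay inside their range. Without the tRNA class of regions defined below, X held 28.2 per Mb. That was below each autosome, which ran from 29.7 per Mb on V to 54.5 per Mb on III. X was also lowest without that class in replicate 1 (11.3 per Mb, against 12.7 on V) and replicate 2 (16.6 per Mb, against 16.8 on V). X made up 17.7% of the nuclear sequence and held 15.8% of the 3879 nuclear regions. It had fewer protein-coding genes (154 per Mb, against 209 per Mb on autosomes) and more tRNA genes (15.6 per Mb, against 4.07 per Mb). The lists called from single replicates held 286 X regions of 1722 in replicate 1 and 395 of 2423 in replicate 2. Of the 614 X regions, 212 (34.5%) overlapped a region in the lists of both replicates, against 1068 (32.7%) of the autosomal regions. That share was 33.0% over all nuclear regions, and X and autosomes did not differ by Fisher's exact test (adjusted exact p = 0.4). Single autosomes ran from 31.2% to 33.7%.

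Each summit was given a place. Promoter summits lay between 500 bp before and 200 bp after a protein-coding transcript start, a tRNA summit lay within 100 bp of a tRNA gene and in no promoter, and the others fell in exons, introns or intergenic sequence. Shares of X were compared with the pooled autosomal share by a two-sided Fisher's exact test, with Benjamini-Hochberg adjustment over 14 tests. Regions of one chromosome are not independent samples, so these p-values measure counting over regions. For the whole-series list the shares of the 5 autosomes are given beside them, as a range or as the highest value.

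X summits lay more often at tRNA genes and in intergenic sequence than autosomal summits did, and less often in promoters, introns and exons. The tRNA class held 115 X regions (18.7%, exact 95% interval 15.7 to 22) and 142 autosomal regions (4.35%), with an odds ratio of 5.07 (adjusted exact p = 2.87e-29, Fisher's exact test). No autosome had more than 4.98% of its regions in that class. Intergenic sequence held 210 X regions (34.2%) and 24.4% of autosomal regions (adjusted exact p = 2.84e-06), with single autosomes between 22.8% and 27.0%. Promoters held 153 X regions (24.9%) and 37.1% of autosomal regions (adjusted exact p = 2.01e-08), with single autosomes between 34.0% and 40.2%. Introns held 12.7% of X regions and 18.7% of autosomal regions (adjusted exact p = 0.000488). Exons held 9.45% of X regions and 15.5% of autosomal regions (adjusted exact p = 0.000143).

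**Figure D1:**
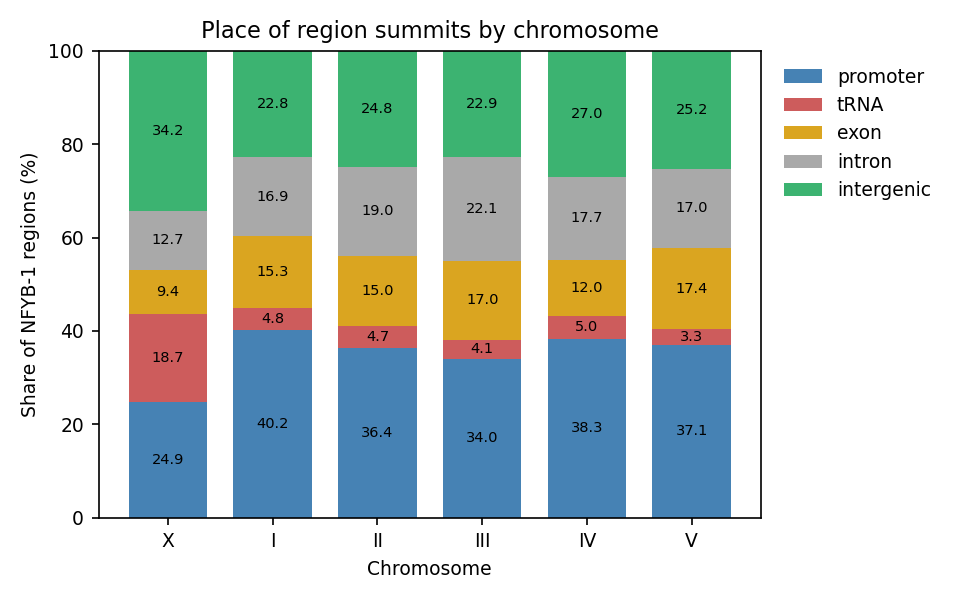
Share of NFYB-1 regions (%) by the place of their summit, with 1 stacked bar for each chromosome and X at the left. X has the tallest tRNA segment (18.7%) and intergenic segment (34.2%) and the shortest promoter segment (24.9%) of the 6 chromosomes.

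The share of sequence in each place also differed between X and the autosomes, and its part in these shares was not tested. Intergenic sequence, as defined here, made up 37.6% of X and 28.2% of the autosomes, and it held 31.5 summits per Mb on X and 34.2 summits per Mb on autosomes. Sequence within reach of a tRNA gene made up 0.387% of X and 0.0902% of the autosomes, and it held 1677 summits per Mb on X and 1908 summits per Mb on autosomes. Promoter windows covered 13.4% of X and 17% of the autosomes, but their summit density was also lower on X, at 64.6 per Mb against 86.1 per Mb. The densities in exons (15.5 per Mb on X, 24.8 per Mb on autosomes) and introns (16.0 per Mb on X, 24.6 per Mb on autosomes) were lower on X as well. With the tRNA class left out of both groups, intergenic sequence held 42.1% of X regions and 25.5% of autosomal regions (adjusted exact p = 1.07e-12), and promoters 30.7% and 38.7% (adjusted exact p = 0.000862). The intron difference did not pass in that setting (15.6% against 19.5%, adjusted exact p = 0.0659) or against chromosome V alone (adjusted exact p = 0.0608). The intergenic difference did not pass in replicate 1 alone (32.2% against 26.1%, adjusted exact p = 0.0642) or among regions found in both replicates (32.5% against 25.7%, adjusted exact p = 0.0649). The exon difference did not pass among regions found in both replicates either (3.3% against 6.46%, adjusted exact p = 0.125).

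Signal is the peak caller's own value for each region, on a scale that the sources used here do not state, and it is used to rank regions within a list. The median signal was 124 on X and 126 on the autosomes. A signal in the upper quartile of all nuclear regions (179 or more) was found at 165 X regions (26.9%) and at 24.7% of autosomal regions (adjusted exact p = 0.262, Fisher's exact test). Single autosomes ran from 21.2% to 26.3%. Within X the median was 174 at tRNA genes, 131 at promoters, 120 in intergenic sequence, 111 in introns and 101 in exons. X had 3 of the 10 strongest regions of the list, all of them promoters, and 18 of the 100 strongest. Of those 18, 10 were intergenic and 4 were promoters, against 26 intergenic and 44 promoter regions among the 82 autosomal ones.

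The 3 strongest X promoters belonged to genes of the endoplasmic reticulum (ER), where secreted proteins are folded. In the replicates' own ranked lists the hsp-3 region had signals of 4030.2 and 5024 (mean 4527 ± 703, SD, n = 2), and its summit lay at -56 bp from the start. hsp-3 encodes an HSP70 chaperone of the ER lumen. The region ranked 2 among all nuclear regions, at X:6091885-6092438. Its whole-series signal of 9033 was the highest on X, and pdi-2 followed at 3178. pdi-2, a protein disulfide isomerase, had signals of 1495 and 1706 in replicates 1 and 2 (mean 1600.3 ± 149, SD, n = 2), and ranked 7. pdi-6, another protein disulfide isomerase, had signals of 1458 and 1606 (mean 1532 ± 104, SD, n = 2), and ranked 8. All 3 summits lay within the extended boxes printed above or less than 30 bp from them.

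The 20 strongest X promoter regions found in both replicates also included serp-1.1, ile-2 with trap-2, and erd-2.1, at places 4, 11 and 13; they are outside the list of ER folding genes and were grouped here after their values were seen. serp-1.1, a stress-associated ER protein that helps membrane proteins at the translocon, had signals of 384 and 491 in replicates 1 and 2. A single summit at X:768207-768361 lay upstream of both ile-2, a lectin of ER-to-Golgi transport, and trap-2, a subunit of the translocon-associated protein complex, with signals of 141 and 161. erd-2.1, the receptor that returns ER proteins from the Golgi, had signals of 109 and 167. These 3 regions held no CCAAT within 100 bp of the summit. Of the list of ER folding genes, 3 of 6 X members were bound (hsp-3, pdi-2 and pdi-6), against 4 of 12 autosomal members, while atf-6 and pek-1, sensors of ER stress, and the co-chaperone gene dnj-7 had no summit in their promoter window. uggt-1, which tags misfolded glycoproteins in the ER and is outside that list, was bound with signals of 75.3 and 61.0 in replicates 1 and 2; it was picked after its values were seen.

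The other promoters among the 20 strongest X promoter regions that were found in both replicates served varied functions. act-4, an actin gene, had signals of 209 and 293 in replicates 1 and 2. epn-1, an epsin of clathrin-mediated endocytosis, had signals of 189 and 263. eef-1A.2, an elongation factor of translation, had signals of 180.3 and 240.2. These 3 regions were well below the pdi genes in both replicates. puf-9, a Pumilio-type RNA-binding protein, had signals of 168 and 193. epg-7, an autophagy scaffold, had signals of 151 and 169.6. nipi-3, a Tribbles-type pseudokinase, had signals of 166 and 151. mdl-1, a Mad-like transcription factor, had 133 and 131 and was thus nearly equal in the replicates. bet-2, a bromodomain protein, had 112 in both. The remaining regions lay at T13C5.6, egl-17 (a fibroblast growth factor), ZK1193.2, F17H10.1, rpl-11.2 (a ribosomal protein) and C28G1.2, where the summit lay 115 bp after that gene's start and also in the window of sec-15 (an exocyst subunit), with replicate signals between 102 and 195. Those of egl-17, ZK1193.2 and C28G1.2 also lay within 100 bp of a tRNA gene, so promoter and tRNA gene cannot be told apart there. Replicate 2 was higher than replicate 1 at 16 of the 20, and at 168 of the 212 X regions found in both lists, where the log2 ratio of replicate 2 to replicate 1 had a median of 0.24 on X and 0.252 on autosomes.

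**Figure D2:**
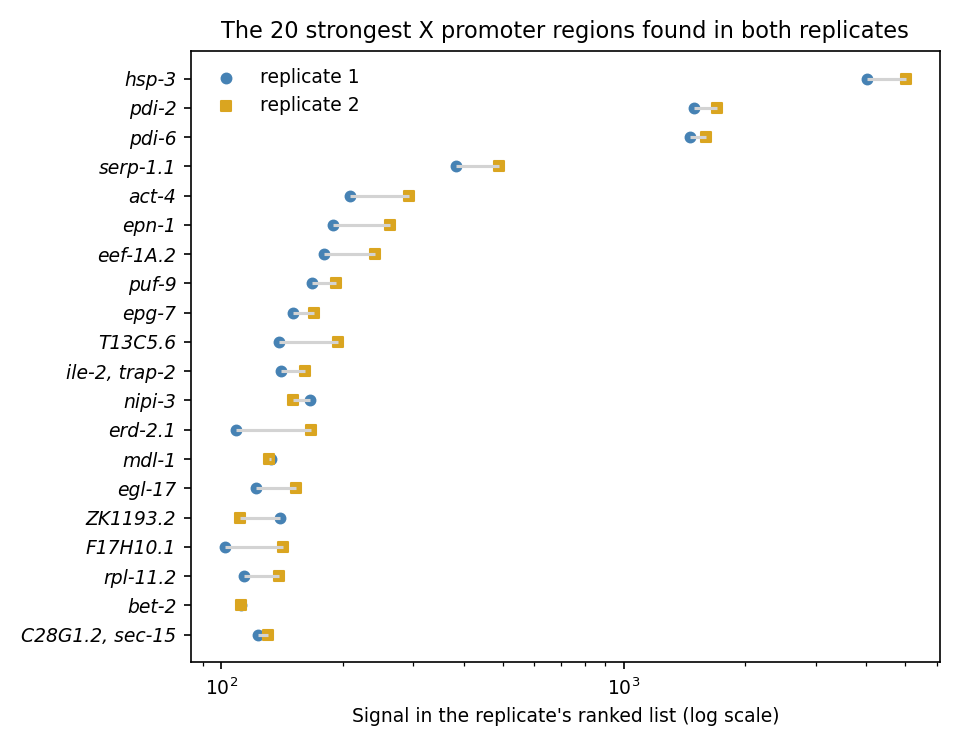
Signal in replicate 1 (circles) and replicate 2 (squares) at the 20 strongest X promoter regions found in both replicates, on a log axis and ordered by the whole-series signal. hsp-3, pdi-2 and pdi-6 lie at 1458 or more in both replicates, and every other region lies below 500.

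Protein-coding genes with a summit in their promoter window were called bound. On X 153 of 2731 genes were bound (5.6%, exact 95% interval 4.77 to 6.53), against 1325 of 17242 autosomal genes (7.68%), and the share over all nuclear genes was 7.4%. X was lower by Fisher's exact test (adjusted exact p = 0.000163), but it lay inside the autosomal range of 5.19% on V to 11.2% on III. Against V alone the difference turned round, at 0.416 percentage points above V (adjusted exact p = 0.458). With genes that have a start within 1000 bp of another gene's start left out, 5.23% of X genes and 5.48% of autosomal genes were bound, and the difference did not pass (adjusted exact p = 0.66). Of the 153 X genes, 64 were also bound in replicate 1's list and 85 in replicate 2's, 56 of them in both, and 18 shared a summit with another gene.

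Of 25 lists of gene functions with X members, 2 had 3 or more of them bound. Nuclear hormone receptors, ligand-regulated transcription factors that are numerous in nematodes, had 4 bound of 23 X members (nhr-35, nhr-40, nhr-1 and nhr-173) and 10 of 246 autosomal members. nhr-35 was the strongest, with signals of 94.4 and 124 in replicates 1 and 2, and nhr-173 the weakest, with 46.1 and 48.3 and no place in either replicate's thresholded list. The ER folding genes given above were the other group. Compared with the 5.6% over all X genes, both shares rest on very few genes, and no test was made. Neuropeptide and insulin genes had 0 bound of 34 X members, cuticle collagens 0 of 27 and listed homeobox genes 0 of 25. The autosomal members of these lists were seldom bound too, at 3 of 106 (2.83%), 1 of 129 (0.775%) and 3 of 62 (4.84%). dve-1, annotated as a homeobox protein but outside the homeobox list, was bound with signals of 61.2 and 57.4. It was not bound in either replicate's thresholded list and was named after its values were seen. Chemoreceptor genes had 1 of 34 on X (srd-44) and 11 of 1331 on autosomes. Ion channels and receptors had 2 of 35 on X (lgc-25 and twk-21) and 2 of 89 on autosomes. Neither srd-44 nor twk-21 was bound in either replicate's thresholded list, though the twk-21 region overlapped a region of replicate 1's list.

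Other lists known for their X members had at most 5 X members each, and their counts are given with no reading against the 5.6% over all X genes. Of the 5 X genes for vitellogenins, the yolk proteins made in the adult intestine, vit-2 was bound, with signals of 114 and 86.0 in replicates 1 and 2. Its promoter region had its summit 142 bp after the start and was followed by 3 more within the gene, so that 4 regions stood at X:5100996-5102679. Their whole-series signals ran from 8.73 to 209.6, and 2 of the 4 overlapped both replicates' lists. Of the 2 listed X genes of dosage compensation, sdc-2, the hermaphrodite factor that starts loading of the complex on X, was bound with signals of 61.8 and 71.9, and sdc-1 was not. None of the 4 listed X genes of sex determination (xol-1, sex-1, fox-1 and ceh-39) had a promoter summit, nor did nfya-1, the X gene for the DNA-reading subunit of NF-Y. Ribosomal protein genes had 1 of 2 X members bound and 47 of 76 autosomal members. The chaperone, proteasome, aminoacyl-tRNA synthetase, spliceosome and major sperm protein lists had no X member. Among other bound X genes, some from lists with more than 5 X members, were vha-12 (a vacuolar proton pump subunit) and gpd-2 (a glycolytic dehydrogenase). Also bound were aco-1 (aconitase), ife-2 (a cap-binding protein), his-24 (a linker histone), sdha-1 (succinate dehydrogenase) and atf-4. Of these, aco-1, ife-2 and atf-4 were not bound in either replicate's thresholded list. The V-ATPase and lysosome list had 1 of 5 X members bound, and 5 of 19 autosomal members. In the same order, glycolysis and TCA cycle had 2 of 6 and 8 of 28, and translation factors 2 of 3 and 9 of 37. Histones had 1 of 4 and 8 of 68, and oxidative phosphorylation 1 of 6 and 14 of 39. The bHLH and bZIP list had 1 of 9 and 5 of 36.

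Of the 276 tRNA genes on X, 134 (48.6%) had a summit within 100 bp, against 181 of 336 on the autosomes (53.9%), and over all nuclear tRNA genes the share was 51.5%. The difference was not detectable (adjusted exact p = 0.227, Fisher's exact test), and single autosomes ran from 39.7% to 64.9%. The direction turned in replicate 1 alone (35.5% on X, 33.6% on autosomes) and against chromosome V alone (48.6% on X, 39.7% on V), and neither difference passed (adjusted exact p = 0.669 and 0.232). Measured along the gene, the median summit lay 17 bp after the start of the X tRNA gene (quartiles -5 and 36.8 bp), and 21 bp after it on autosomes. 74 of the X genes were bound in the whole-series list and in both replicates' lists.

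The strongest X tRNA region, at X:3036016-3036269, lay between the divergent genes M02F4.t2 (tRNA-Glu) and M02F4.t1 (tRNA-Gly) and had signals of 277 and 311 in replicates 1 and 2. The next lay at F15G9.t1 and F15G9.t2 (both tRNA-Ala), with 234 and 253. A region between C53C7.t2 and C53C7.t1 (both tRNA-Ser) had 171 and 263, a wider gap than at the others. Regions at C04A11.t1 (tRNA-Leu), with 210.5 and 208, and at C02B4.t2 (tRNA-Tyr), with 180 and 193, completed the 5 strongest. In 3 of these 5 the summit lay within 100 bp of a pair of tRNA genes. By amino acid, the X genes for tRNA-Thr (10 of 14), tRNA-Glu (16 of 23), tRNA-Ala (9 of 13) and tRNA-Ser (12 of 18) were bound most often among those with at least 10 X members, and tRNA-Arg (10 of 27), tRNA-Lys (7 of 18) and tRNA-Leu (7 of 17) least often. On the autosomes the counts were 11 of 20 for tRNA-Thr, 10 of 18 for tRNA-Glu, 15 of 21 for tRNA-Ala, 7 of 21 for tRNA-Ser, 11 of 17 for tRNA-Arg, 17 of 28 for tRNA-Lys and 17 of 22 for tRNA-Leu; no test was made for single amino acids.

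Identical gene copies limit these values. An exact copy elsewhere in the genome existed for 219 of the X tRNA genes, of which 52.5% were bound, and 33.3% of the 57 without one were bound. On the autosomes 58.8% of the 250 with a copy and 39.5% of the 86 without one were bound. How the authors' alignment placed reads that match several copies is not given in the sources used here, and its part in these shares was not tested. Other short non-coding genes were counted by a summit within 100 bp. Small nucleolar RNA genes had 4 of 33 on X (12.1%) and 82 of 313 on autosomes (26.2%). The X summits at D2021.6 and Y102A11A.16 of that class also lay in protein-coding promoters. Small nuclear RNA genes had 1 of 3 on X (33.3%) and 40 of 126 on autosomes (31.7%). MicroRNA genes had 1 of 74 on X (1.35%) and 12 of 187 on autosomes (6.42%). The microRNA gene, mir-239.1, lay beside a region with a signal of 6.29, low in the list.

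CCAAT was about as frequent at X summits as in the sequence beside them. It occurred within 100 bp of 209 X summits (34.0%) and of 37.5% of autosomal summits (adjusted exact p = 0.155, Fisher's exact test). The difference passed, with X lower, in replicate 1 alone (31.1% on X, 41.6% on autosomes, adjusted exact p = 0.00144), at an IDR of 0.001 or less (30.6% on X, 39.6% on autosomes, adjusted exact p = 0.00908) and outside promoters (34.5% on X, 41.6% on autosomes, adjusted exact p = 0.00831). In windows of the same 201 bp centred 500 bp to the left and right of the X summits it occurred in 34.7% and 33.9%, and in 35.3% of all such windows tiled along X. The CG-rich letters CGCGC were found at 135 X summits (22%) and 25.9% of autosomal summits (adjusted exact p = 0.0594), with single autosomes between 24.8% and 28.0%. The X flanks held CGCGC in 6.68% and 6.03%, and 6.5% of all X windows did. CGCGC overlaps GCGCAGGG by up to 4 letters where CGCGC runs into the core. The GC content of X windows was 45.0% at summits and 35.8% and 35.3% in the flanks.

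The extended box was present at 24 X summits (3.91%, exact 95% interval 2.52 to 5.76), against 9.22% of autosomal summits (adjusted exact p = 9.59e-06, Fisher's exact test), and below each autosome, which ran from 6.01% on IV to 13.5% on III. The X flanks held it in 2.12% and 1.47%, and 1.88% of all X windows did. The shares differed with the place of the summit, though the places were not tested against each other. At promoters 8 of 153 X regions (5.23%) and 4.46% of autosomal regions had the box, so that the direction turned round and the difference did not pass (adjusted exact p = 0.679). In exons the shares were 6.9% on X and 6.52% on autosomes (adjusted exact p = 0.784). In introns 2 of 78 X regions (2.56%) and 140 of 610 autosomal regions (23%) had it (adjusted exact p = 5.79e-06), and in intergenic sequence 2.86% of X regions and 8.78% of autosomal regions (adjusted exact p = 0.00515). Counting only boxes whose 21 bases occur once in the genome left 21 X regions (3.42%) and 8.33% of autosomal regions (adjusted exact p = 1.66e-05). The box was also rarer in the X sequence, at 99.7 per Mb against 123 per Mb. Counted by box, 26 X boxes (1.47%) lay at 24 summits and 571 autosomal boxes (5.61%) at 301 summits, so autosomal summits held more boxes each. A pair of CCAAT and CCACG spaced otherwise than in the ER stress element lay at 40 autosomal summits and 0 X summits. Without those regions the shares were 3.91% on X and 8.12% on autosomes (adjusted exact p = 0.00029).

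**Figure D3:**
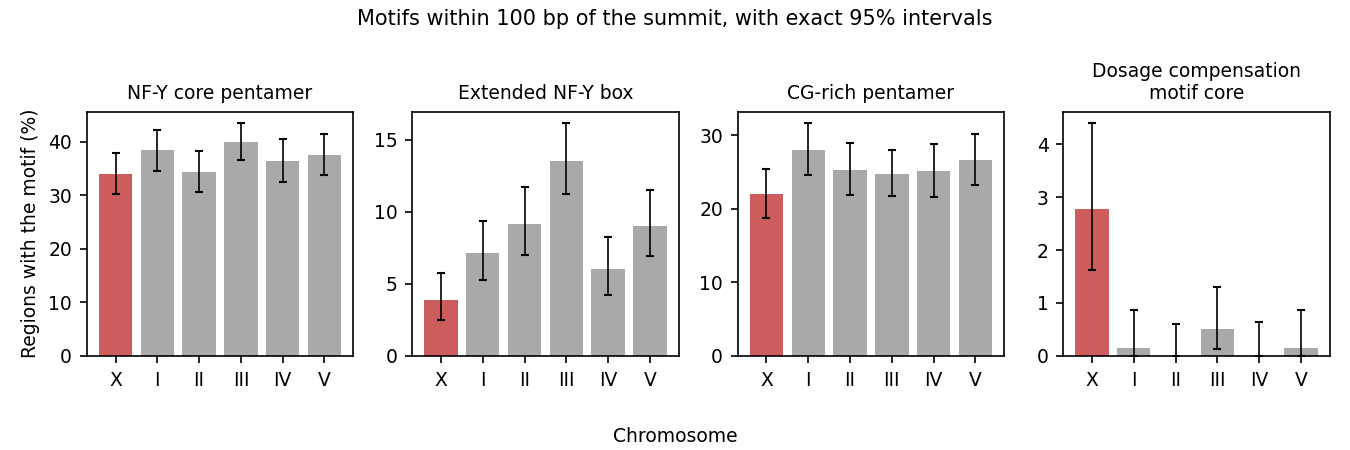
Share of regions (%) with each motif within 100 bp of the summit, by chromosome with X at the left; bars are shares and lines are exact 95% intervals, which cover counting error only. From left to right the motifs are CCAAT, the extended box, CGCGC and GCGCAGGG, and the panels have different scales. X has the lowest share of the extended box (3.91%) and the highest of the dosage compensation core (2.77%).

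At X promoters the box was present at hsp-3, pdi-2 and pdi-6, the strongest regions, but its 8 regions were widely spread in signal. They ran from 92.9 to 9033 with a median of 362, and 7 of them (87.5%) were in the upper quartile. The 145 promoter regions without it reached 873 with a median of 128, and 26.2% of them were in the upper quartile. On the autosomes the medians were 166 at 54 promoter regions with the box and 131 at 1156 without. There 44.4% and 28.0% were in the upper quartile. The 8 were hsp-3, pdi-2, pdi-6, act-4, vha-12, spp-2 (a saposin-like protein), sox-2 (a transcription factor) and dhhc-9 (a palmitoyltransferase). Away from promoters the 16 X regions with the box had a median signal of 114 and the 445 without it 122, against 151 and 119 on the autosomes. Among the 20 strongest X promoter regions found in both replicates 4 had the extended box, 6 had CCAAT and 11 had CGCGC. Over all 153 X promoter regions the shares were 5.23%, 32.7% and 30.1%. CCAAT was thus no more frequent at the 20 than over all X promoter regions.

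Of the 16 X boxes away from promoters, 4 were at tRNA genes, and all 4 lay inside a tRNA-Thr gene, beginning 3 bp into it, with nearly the same letters. It is printed here, with CCAAT in capitals, on the strand opposite to the gene ZK563.t1.
ZK563.t1, X:3371472-3371500, plus strand: tctgccactgagCCAATgaggcgcataag
Regions at R11B5.t1, R04D3.t5 and F25F6.t2 held the other X copies, and 4 autosomal tRNA-Thr regions held the box at the same distance. The ER stress element was found at 1 X summit, that of pdi-2, and at 0 autosomal summits (adjusted exact p = 0.201).

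GCGCAGGG was found more often at X summits than at autosomal ones. It lay within 100 bp of 17 X summits (2.77%, exact 95% interval 1.62 to 4.4) and of 6 autosomal summits (0.184%), with an odds ratio of 15.5 (adjusted exact p = 5.59e-09, Fisher's exact test). No autosome exceeded 0.511%. The X flanks held it in 0.163% and 0.326%, and 0.0851% of all X windows and 0.0553% of all autosomal windows did. The share was 4.55% on X and 0.348% on autosomes in replicate 1, and 3.54% on X and 0.197% on autosomes in replicate 2. Of the 17 X regions 13 were intergenic, 2 lay in introns, 1 in an exon and 1 in a promoter, that of R04E5.9. Together they held 21 sites. At promoters alone 1 X region and 1 autosomal region had it, and the difference did not pass (adjusted exact p = 0.247).

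These X regions were strong and repeated in the replicates. Their signals ran from 87.8 to 768 with a median of 441, against a median of 123 at the 597 X regions without the core. 12 of the 17 (70.6%) overlapped a region in both replicates' lists, against 33.5% of the X regions without it and 33.0% of all nuclear regions. Among the 20 strongest X regions outside promoters and tRNA genes 10 had the core and 0 had the extended box. Among the 20 strongest autosomal ones 0 had the core and 3 had the extended box. These 2 sets differ in strength, with signals of 404 to 768 on X and 689 to 4946 on autosomes. At the shared cut of the upper quartile, 11 of 66 such X regions (16.7%) and 3 of 399 autosomal ones (0.752%) had the core. At that cut the extended box was found at 0 of the 66 and at 79 of the 399.

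The 5 strongest X regions outside promoters and tRNA genes show this one by one. The region at X:11094008-11094350 had signals of 355 and 426 in replicates 1 and 2 (mean 390.3 ± 50.4, SD, n = 2) and held 2 cores. The region at X:14525780-14526112 had 274 and 395, held 1 core, and lay upstream of nspc-17, at -740 bp from its start. The region at X:4209133-4209421 had 298 and 378 and held 1 core. These 3 were intergenic. The fourth, X:13700711-13700995, was intergenic too, with 305 and 366, and was the one of the 5 that held neither the core, the extended box nor CGCGC. The fifth, in an intron at X:6296391-6296700, had 254 and 338 and held 2 cores. A region with a summit at 8036446, picked after its values were seen, had signals of 205 and 308 and 2 cores on opposite strands, and lay upstream of xol-1, the switch gene of sex determination, at -4867 bp from its start.

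**Figure D4:**
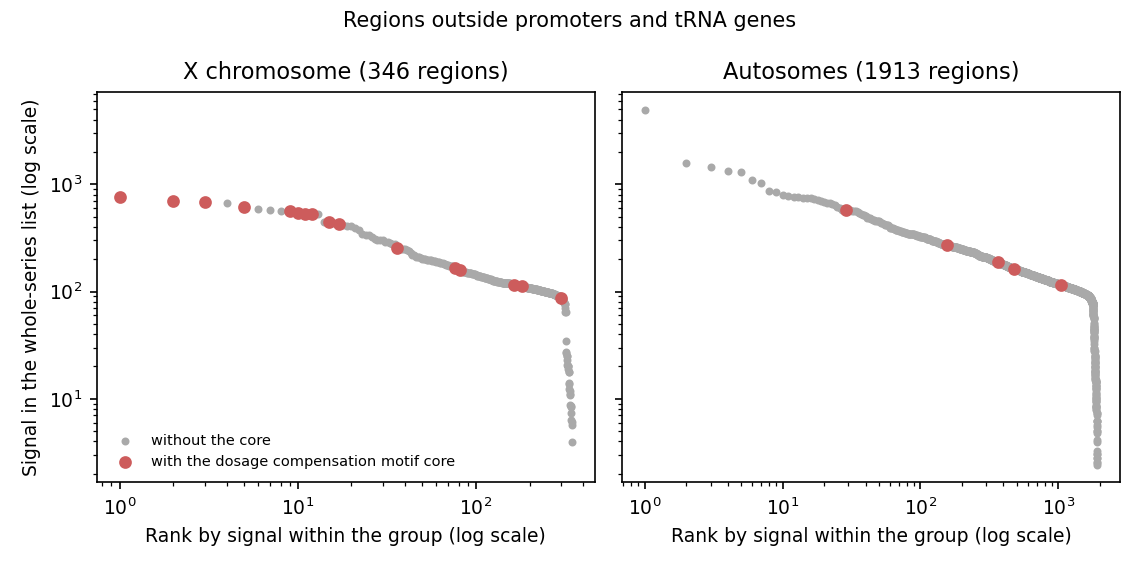
Signal in the whole-series list against rank within the group, both on log axes, for regions outside promoters and tRNA genes, with X at the left and the autosomes at the right. Large points have the core of the dosage compensation motif: 16 of 346 X regions, 10 of them among the first 20, and 5 of 1913 autosomal regions, 0 of them among the first 20.

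A larger share of the core sites on X than on the autosomes lay at a summit. Of the 81 GCGCAGGG sites on X, 21 (25.9%, exact 95% interval 16.8 to 36.9) lay at a summit, against 6 of 233 autosomal sites (2.58%, 0.951 to 5.52). In sequence the core occurred 4.57 times per Mb on X and 2.82 times per Mb on the autosomes. At the 21 X sites C preceded the core in 15, T stood before that base in 15, and A followed the core in 16. Extending the core by the most common letter wherever that letter reached 50% gave TATCGCGCAGGGA, which occurred at 8 places on X, 7 of them at summits, and at 0 on the autosomes. With up to 1 mismatch it occurred 18 times on X, 12 at summits, and 9 times on autosomes, 0 at summits. As this longer form was read from the summits themselves, its counts at summits are a description. Each of the 21 X sites had 28 bases found once in the genome, while 3 of the 6 autosomal sites were copies of a sequence present 20 times. The files hold no list of recruitment sites, so how many of the 17 X regions are such sites was not tested, nor was the binding of the dosage compensation complex.

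Along X the regions were found in nearly equal numbers. In 3 equal parts from left to right there were 204, 207 and 203 regions (33.2%, 33.7% and 33.1%), while the autosomes varied. The middle part was the fullest on I (43.2%) and V (39.7%), the right part on II (42.0%) and III (37.4%), and on IV the left and middle parts held 35.2% each. The genes of X were spread in like manner, with 31.9%, 35.8% and 32.3% of its protein-coding genes. The tRNA genes were not, with 51, 107 and 118 from left to right, of which 30, 51 and 53 were bound. The 17 regions with GCGCAGGG numbered 9, 5 and 3 from left to right.

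In the 17 full bins of 1 Mb the count ran from 19 to 56 regions, with a median of 33. Bin 7 (6 to 7 Mb) had the most, and 25 of its 56 regions were intergenic. It holds the hsp-3 region. Bin 9 (8 to 9 Mb) held 51 tRNA genes and 18 regions of the tRNA class, the most of any bin in both. Bin 10 (9 to 10 Mb) had the fewest regions, and 8 of its 19 were at tRNA genes and 2 at promoters.

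**Figure D5:**
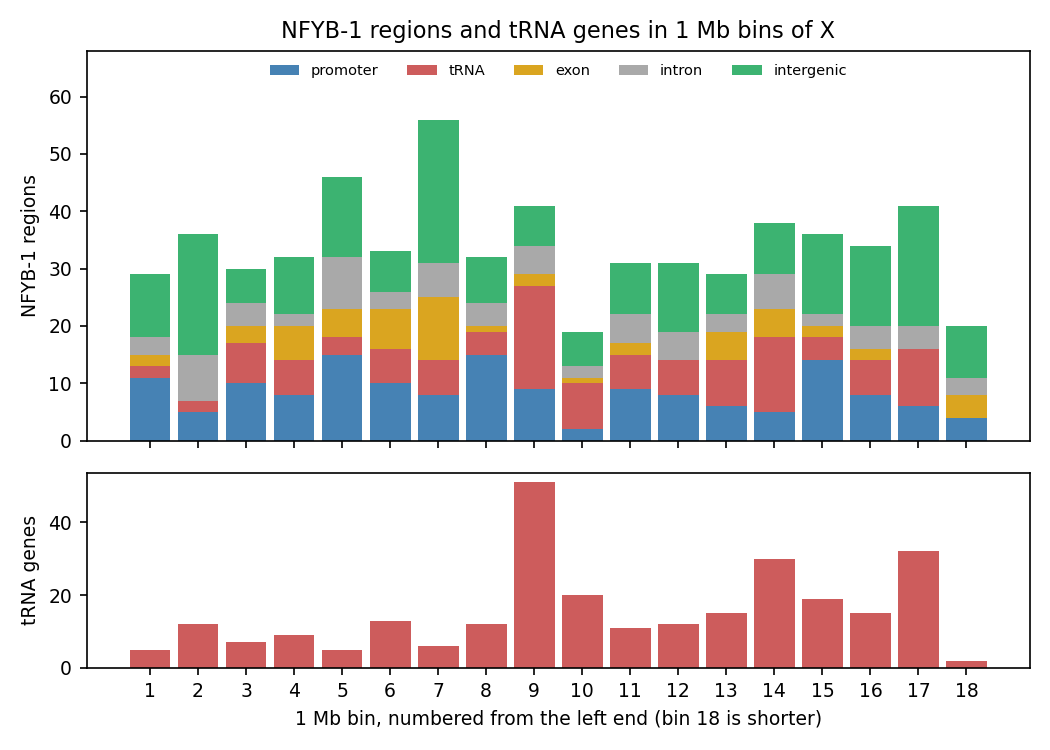
Number of NFYB-1 regions in 1 Mb bins of X, stacked by the place of the summit (upper panel), and number of tRNA genes in the same bins (lower panel). The counts of regions lie between 19 and 56 in the full bins, and the most tRNA genes (51) and the most tRNA regions (18) fall in bin 9.

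On a finer scale there were 23 runs of 3 or more regions with summits no more than 2000 bp apart, and they held 80 of the 614 regions. The longest run, at X:16929611-16932595, was made of 6 intergenic regions near C30E1.4, with whole-series signals of 64.7 to 431, and all 6 overlapped both replicates' lists. The next, 5 intergenic regions at X:6252229-6256970, had signals of 5.66 to 186 and its last summit lay just inside the long non-coding RNA gene linc-103, a gene that codes for no protein and so counted as intergenic. A run of 4 lay at gpd-2 and mai-1. Intergenic X summits had a median distance of 1874 bp to the nearest protein-coding start, against 1630 bp on autosomes.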

How the data were processed

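Regions came from GFP chromatin immunoprecipitation and sequencing of 2 biological replicates. Per the labels and description files, the authors placed regions on ce11 and ranked them by IDR. Which aligner and peak caller they ran is not given in the sources used here. In the deposited lists the score is the scaled IDR, the deposited signal is the caller's value on an unstated scale, and the deposited −log10 column of the ranked lists holds the IDR. The conservative thresholded whole-series list was used, of which 3879 regions lay on the 6 nuclear chromosomes. A replicate's signal is that of the overlapping region in its ranked list whose summit lies nearest. List membership is any overlap with its thresholded list. Sequencing depth is unknown, and intervals cover counting error only.

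Genes and transcript starts came from Ensembl release 115 of WBcel235, the same assembly, and products and the amino acids of 607 of 612 tRNA genes from RefSeq. Coordinates are 1-based. Motifs were sought on both strands within 100 bp of summits. Shares were tested with two-sided Fisher's exact tests (scipy 1.17.1), adjusted over 14 tests, with Clopper-Pearson 95% intervals. For an alternative setting, its p-value replaced the main one of that result among the 14. The other p-values stayed those of the main list, so such adjusted values are not from the setting's own tests. The code was tested on simulated data. A permutation over 6 chromosomes cannot give less than 0.167. Named regions were the 20 strongest X promoter regions found in both replicates, the 5 strongest elsewhere, the 5 strongest at tRNA genes, and bound members of the lists. The members and lists were chosen with earlier results of these data known.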

Additional observations from a re-analysis of the deposited data

How the results depend on the processing

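Over 155 alternatives of 15 results, 135 kept their direction where one was called and their side of the threshold. Differences are X minus autosomes in percentage points. Leaving out replicate 2 or 1 moved the promoter difference to between -16.5 and -12.7, the tRNA difference to between 19.5 and 24.0, the intergenic difference to between 6.05 and 6.08 (which did not pass in replicate 1 alone), the CCAAT difference to between -10.5 and -4.9 (which passed in replicate 1 alone, adjusted exact p = 0.00144), and the density on X to between 16.1 and 22.3 regions per Mb. Among regions in both replicates' lists the exon difference was -3.16 and the intergenic one 6.89, neither past the threshold, and X had 12 regions per Mb. With chromosome V in place of the autosomes the intron difference was -4.27 and did not pass, the difference in bound genes turned to 0.416, and the upper signal quartile passed at 5.69. At an IDR of 0.001 or less CCAAT passed at -8.99 and X had 15.1 regions per Mb. Outside promoters CCAAT passed at -7.07. CGCGC passed at -4.28 with summits within 200 bp of a stronger one dropped. The extended box turned to 0.766 at promoters and 0.375 in exons, and GCGCAGGG fell short at promoters (0.571). Without genes that have close starts the bound gene difference was -0.248, and without the tRNA class the intron difference was -3.9, neither past the threshold, and X had 28.2 regions per Mb. The cause of these changes was not tested. The settings that leave out the tRNA class, split the extended box by introns, exons, intergenic sequence or copy number, drop its pairs with CCACG, or take GCGCAGGG outside promoters and tRNA genes were added after seeing the data. No paired analysis was possible because both replicates belong to 1 group.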
